A study of Mus musculus with 6 samples.

Results

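Keratin genes were followed across upper first molars of newborn mice with 0, 1 or 2 mutant copies of Ascl5, whose product is a transcription factor of the basic helix-loop-helix family. All gene symbols made of Krt, a number and at most 1 small letter that stand in both deposited tables were taken, which gave 55 keratins among 24961 gene names. There were 6 libraries of total RNA from maxillary first molars at postnatal day 1, 2 each of Ascl5Mut/Mut, Ascl5Mut/WT and Ascl5WT/WT. The labels name the mutant allele only as Mut and do not say whether animals or teeth were pooled for a library, so p-values measure the spread between these libraries, which may be technical. The question set by the design is how transcript levels in each mutant genotype differ from those in Ascl5WT/WT.

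Keratins are the intermediate filament proteins of epithelial cells. Each filament is built from an acidic type I and a basic type II keratin, and the pair in use tells which epithelium a cell belongs to. Krt8 and Krt18 pair in simple epithelia, Krt5 and Krt14 in the basal layer of stratified epithelia, Krt1 and Krt10 in the upper layers of epidermis, and Krt4 and Krt13 in the upper layers of mucosa. Krt76 belongs to the hard palate and gingiva, while Krt6a, Krt16 and Krt17 come up in activated epithelium and in skin appendages. The enamel organ, the epithelial part of a tooth germ, is known for Krt5 and Krt14.

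Levels are the authors' normalized counts, in which what appears to be 1 read is worth 109 to 140 depending on the library. Total normalized counts of 12304814 to 13118122 per library thus correspond to an estimated 90476 to 117121 reads assigned to genes. Genes at 0 made up 66.6% to 71.0% of each library, and among 81 genes for ribosomal proteins 28 had a 0 in some library, so a keratin at 0 is described only as listed at 0. A listing of 0 is compatible with up to 3 reads, or 326 to 419 normalized counts, and this covers counting error only. Ascl5 itself was listed at 0 in all 6 libraries, which leaves the genotype labels unchecked. Of the enamel organ markers, Amelx and Mmp20 read 0 throughout the Ascl5Mut/Mut table, and each had a value in 1 Ascl5Mut/WT library only in the other table. Shh and Sostdc1, also counted among these markers, had values in both Ascl5WT/WT libraries and are given further below. Epithelium was nonetheless represented in every library by Krt14. The 2 tables were normalized separately, so each mutant genotype is set against the Ascl5WT/WT values of its own table, and both comparisons use the same 2 Ascl5WT/WT libraries. In such bulk RNA, fewer cells of a type and less RNA per cell cannot be told apart.

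The mucosal pair Krt4 and Krt13 made up a far larger part of the keratin content in both mutant genotypes than in Ascl5WT/WT. The 3 mucosal keratins held 44.2% and 51.3% of the summed keratin level in Ascl5Mut/Mut, against 0.411% and 1.24% in Ascl5WT/WT. In Ascl5Mut/WT they held 30.5% and 33.4%, against 0.394% and 1.19% in Ascl5WT/WT. Basal keratins held 31.0% and 18.4% in Ascl5Mut/Mut, against 64.5% and 60.6% in Ascl5WT/WT. They held 36.2% and 45.5% in Ascl5Mut/WT, against 66.0% and 62.3% in Ascl5WT/WT. Mucosal shares thus lay above, and basal shares below, both Ascl5WT/WT libraries in every mutant library. The basal sums themselves overlapped, at 8009 and 27509 normalized counts in Ascl5Mut/Mut, against 17044 and 14986 in Ascl5WT/WT, and at 14297 and 44718 in Ascl5Mut/WT, against 18518 and 16678.

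The sum over all 55 keratins separated Ascl5Mut/WT, but not Ascl5Mut/Mut, from Ascl5WT/WT. It was 25797 and 149787 normalized counts in Ascl5Mut/Mut, against 26440 and 24736 in Ascl5WT/WT, so only Ascl5Mut/Mut replicate 2 stood apart. Those sums were 0.200% and 1.22% of all normalized counts in Ascl5Mut/Mut, against 0.208% and 0.197% in Ascl5WT/WT. The log2 ratio of the group means was 1.78 with both libraries and 0.0118 without Ascl5Mut/Mut replicate 2. In Ascl5Mut/WT the sum was 39498 and 98209, against 28064 and 26779 in Ascl5WT/WT, a log2 ratio of 1.33 that was 0.53 without Ascl5Mut/WT replicate 2. With 2 libraries against 2, the smallest two-sided p of an exact permutation test is 0.33, so these sums were not tested.

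**Figure D1:**
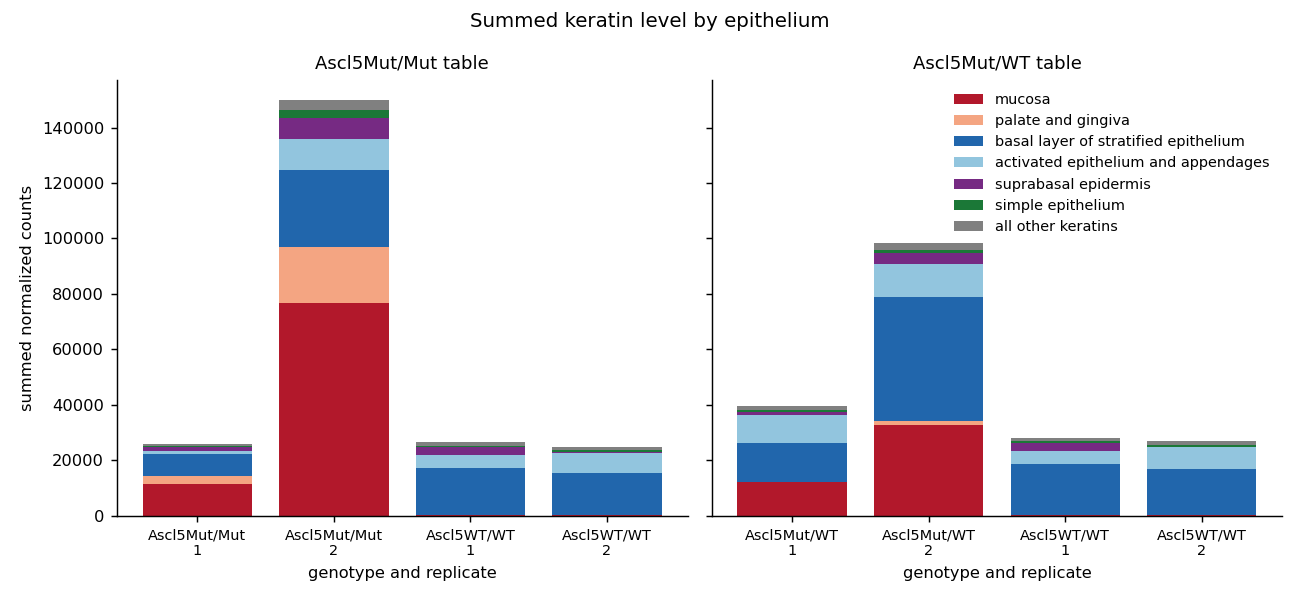
Summed normalized counts of keratins in each library, stacked by the epithelium the keratins belong to, for Ascl5Mut/Mut (left) and Ascl5Mut/WT (right) with the Ascl5WT/WT libraries of the same table. The mucosal block is visible in all 4 mutant libraries, where it spans 11402 to 76796, and reaches at most 319 in Ascl5WT/WT.

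Krt4, the type II keratin of mucosa (chromosome 15, 101918535 to 101924735, minus strand, GRCm38), had 5922 and 38281 normalized counts in Ascl5Mut/Mut, against 109 and 0 in Ascl5WT/WT. These values correspond to about 42.4 and 281.5 estimated reads in Ascl5Mut/Mut and 1.00 and 0 in Ascl5WT/WT. In Ascl5Mut/WT it had 8146 and 15031, against 111 and 0 in Ascl5WT/WT. Every mutant library lay far above both Ascl5WT/WT libraries. On the scale of log2(normalized count + 120), Krt4 rose by 6.52 in Ascl5Mut/Mut (SE 0.93, limma adjusted p = 0.0151) and by 6.07 in Ascl5Mut/WT (SE 0.79, limma adjusted p = 0.000261). Krt4 reached the mean of 1000 normalized counts needed for testing through the mutant libraries alone. With no minimum mean, its limma adjusted p was 0.44 in Ascl5Mut/Mut and 0.000274 in Ascl5Mut/WT. With a group at or near 0, the size of such a fold change depends on the pseudocount. The call was lost without either Ascl5Mut/Mut library (limma adjusted p = 0.299 and 0.279) and without either Ascl5Mut/WT library (limma adjusted p = 0.655 and 0.841).

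Krt13, its type I partner (chromosome 11, 100117327 to 100121566, minus strand), had 5344 and 38097 normalized counts in Ascl5Mut/Mut, against 0 and 306 in Ascl5WT/WT. Its values in Ascl5Mut/WT were 3636 and 17812, against 0 and 319 in Ascl5WT/WT. The groups were separate in both tables, with at most about 2.6 estimated reads in an Ascl5WT/WT library. Krt13 rose by 6.0 in Ascl5Mut/Mut (SE 0.99, limma adjusted p = 0.0271) and by 5.16 in Ascl5Mut/WT (SE 0.90, limma adjusted p = 0.0062). Krt13 too was tested through its mutant values alone. With no minimum mean, its limma adjusted p was 0.576 in Ascl5Mut/Mut and 0.0101 in Ascl5Mut/WT. Without Ascl5Mut/Mut replicate 1, Ascl5Mut/Mut replicate 2 or Ascl5WT/WT replicate 1 the limma adjusted p in the Ascl5Mut/Mut comparison was 0.318, 0.403 and 0.0974, and in the Ascl5Mut/WT comparison it was 0.679 and 0.841 without Ascl5Mut/WT replicate 1 or 2. By rank among all genes of a library, Krt4 was 341st and 18th and Krt13 was 390th and 19th in Ascl5Mut/Mut, while each was listed at 0 in 1 Ascl5WT/WT library. The third mucosal keratin, Krt78 of upper mucosal layers, stayed near the level of single reads, at 136 and 418 in Ascl5Mut/Mut and 0 in both Ascl5WT/WT libraries. It had 253 and 0 in Ascl5Mut/WT and 0 in both Ascl5WT/WT libraries.

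Krt76, the type II keratin of hard palate and gingiva (chromosome 15, 101884351 to 101892920, minus strand), differed between the mutant genotypes in the values listed. It had 2761 and 20277 normalized counts in Ascl5Mut/Mut and was listed at 0 in each Ascl5WT/WT replicate. In Ascl5Mut/WT it had 0 and 1230, again against 0 and 0. Both Ascl5Mut/Mut libraries were high, whereas 1 of the 2 Ascl5Mut/WT libraries was listed at 0. The limma estimate for Ascl5Mut/Mut was 6.0 (SE 1.25, limma adjusted p = 0.0647), above the threshold of 0.05, and 4 of 14 alternatives called it (limma adjusted p from 0.0214 to 0.576). Of the cases that left out 1 library, it was called without Ascl5WT/WT replicate 2 (limma adjusted p = 0.0214) and not without Ascl5Mut/Mut replicate 1 or 2 (limma adjusted p = 0.299 and 0.224) or Ascl5WT/WT replicate 1 (limma adjusted p = 0.0974). Its Ascl5Mut/WT values did not reach the minimum mean of 1000 normalized counts, and the 2 mutant genotypes were not tested against each other.

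**Figure D2:**
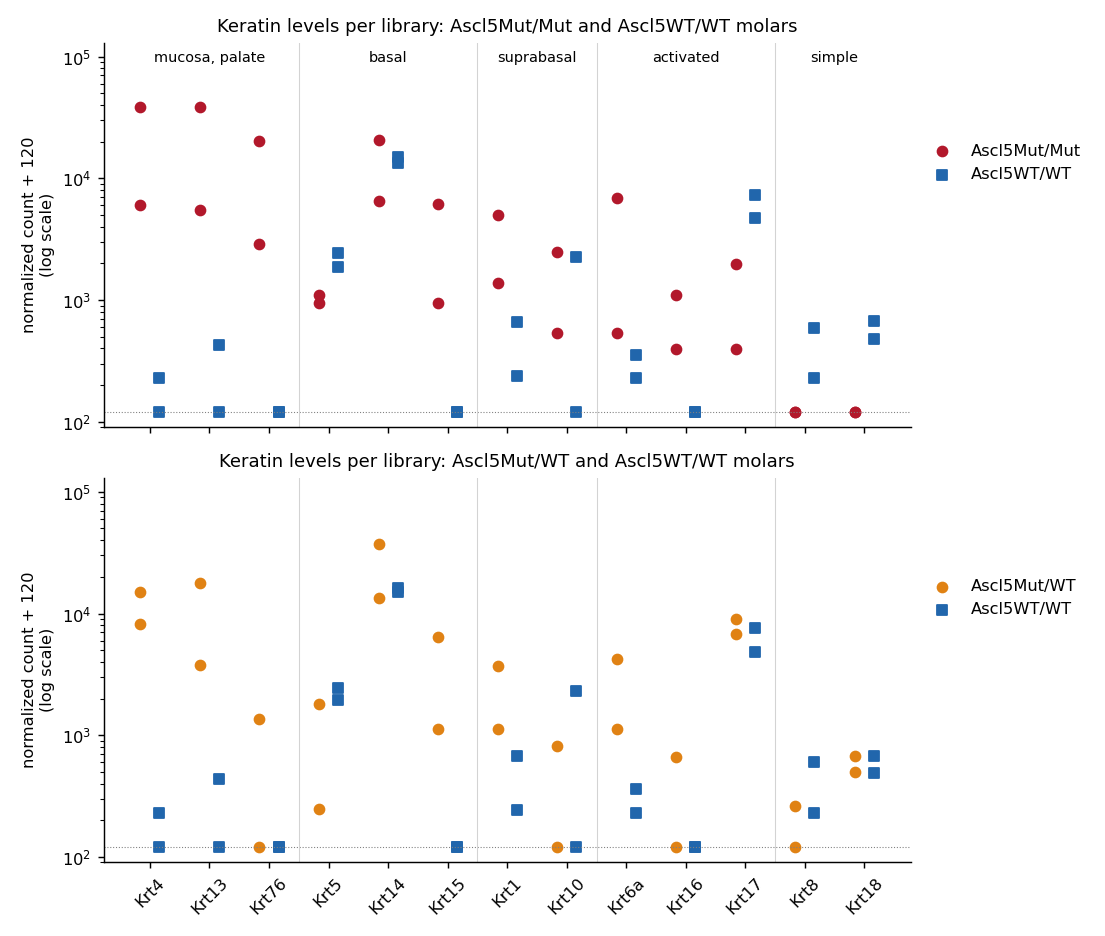
Normalized counts plus 120, on a log axis, of 13 keratins in each library of Ascl5Mut/Mut (top, circles) and Ascl5Mut/WT (bottom, circles) beside Ascl5WT/WT (squares); the dotted line marks a listing of 0. Krt4 and Krt13 are high in all 4 mutant libraries, Krt76 in both Ascl5Mut/Mut libraries, and both Krt17 values of Ascl5Mut/Mut lie below those of Ascl5WT/WT.

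Start regions of Krt13 and Krt76, high in mutant libraries, and of the basal keratin Krt5 are shown because E-boxes, written CANNTG, are the letters that basic helix-loop-helix factors bind. RefSeq start windows on GRCm38.p6, from 250 bases before to 50 bases after the start, matched 36 of the 55 keratins with 37 windows. Krt4, Krt15 and Krt17 were among those without a window, so none is shown for them. Krt13 has 2 of them, and the one that spans its annotated start is shown. All 3 windows lie on the minus strand and are written 5′ to 3′ along the gene, with E-boxes in capitals.
Krt13, chr11:100121517-100121816: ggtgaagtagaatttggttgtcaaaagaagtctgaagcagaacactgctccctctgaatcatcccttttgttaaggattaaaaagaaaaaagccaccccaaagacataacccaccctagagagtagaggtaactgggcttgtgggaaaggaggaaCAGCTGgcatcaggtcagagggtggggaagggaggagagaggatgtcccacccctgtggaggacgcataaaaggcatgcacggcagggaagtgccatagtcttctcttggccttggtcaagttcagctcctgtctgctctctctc
Krt76, chr15:101892871-101893170: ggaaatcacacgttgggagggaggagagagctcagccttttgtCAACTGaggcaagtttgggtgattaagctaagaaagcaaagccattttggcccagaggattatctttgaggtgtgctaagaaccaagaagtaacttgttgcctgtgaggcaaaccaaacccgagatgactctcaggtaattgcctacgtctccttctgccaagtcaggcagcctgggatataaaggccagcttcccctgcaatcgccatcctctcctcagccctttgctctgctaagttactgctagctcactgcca
Krt5, chr15:101712856-101713155: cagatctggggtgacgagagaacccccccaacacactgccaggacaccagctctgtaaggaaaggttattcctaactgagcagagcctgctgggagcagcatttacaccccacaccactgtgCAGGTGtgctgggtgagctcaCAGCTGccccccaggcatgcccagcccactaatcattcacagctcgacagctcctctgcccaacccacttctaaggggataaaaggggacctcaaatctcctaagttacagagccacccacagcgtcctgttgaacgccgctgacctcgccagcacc

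The Krt13 window held 1 E-box, CAGCTG, starting 95 bases upstream of the start. That of Krt76 held 1, CAACTG, starting 207 bases upstream, and that of Krt5 held CAGGTG and CAGCTG, starting 128 and 107 bases upstream. On both strands, CANNTG was found in 81.1% of keratin windows and in 72.3% of all 32851 windows, and its subset CAGCTG in 18.9% and 16.3%. TATAAA was found in 51.4% of keratin windows and in 13.6% of all windows, and the Krt76 window held it 29 bases upstream. TGANTCA, the AP-1 motif, was found in 5.41% of keratin windows and in 7.81% of all windows, in both Krt13 windows and no other keratin's. A match to these letters is a description and not a binding site.

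Basal keratins were the main keratins of Ascl5WT/WT molars. Krt14, the type I keratin of basal cells and of the enamel organ, had 6362 and 20549 normalized counts in Ascl5Mut/Mut, against 14740 and 13227 in Ascl5WT/WT. In Ascl5Mut/WT it had 13174 and 36780, against 16181 and 14852 in Ascl5WT/WT. The groups overlapped in both tables. Its log2 difference was -0.28 in Ascl5Mut/Mut (95% interval -1.42 to 0.86) and 0.50 in Ascl5Mut/WT (95% interval -0.36 to 1.36), neither of which passed limma (adjusted p = 0.862 and 0.722). The sign changed to 0.55 without Ascl5Mut/Mut replicate 1 and to -0.23 without Ascl5Mut/WT replicate 2.

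Krt5, the type II partner of Krt14, had 824 and 987 normalized counts in Ascl5Mut/Mut, against 2304 and 1759 in Ascl5WT/WT. Means were 905 ± 115 in Ascl5Mut/Mut and 2031 ± 385 in Ascl5WT/WT (SD, n = 2 each). In Ascl5Mut/WT it had 126 and 1685, against 2337 and 1825 in Ascl5WT/WT. Both mutant groups lay below both Ascl5WT/WT libraries without overlap, but neither difference passed, at -1.06 for Ascl5Mut/Mut (SE 0.73, limma adjusted p = 0.594) and -1.71 for Ascl5Mut/WT (SE 0.98, limma adjusted p = 0.594). Krt15, a type I keratin of basal and stem cells in stratified epithelia, was listed at 0 in each Ascl5WT/WT replicate. It had 823 and 5974 in Ascl5Mut/Mut and 997 and 6253 in Ascl5Mut/WT. All 4 mutant values were above those of Ascl5WT/WT, yet the spread between mutant libraries was wide and no call was made (limma adjusted p = 0.538 and 0.594).

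Among keratins of activated epithelium and appendages, Krt17 and Krt6a stood on opposite sides in Ascl5Mut/Mut. Krt17, a type I keratin of skin appendages and wounds, had 272 and 1864 normalized counts in Ascl5Mut/Mut, against 4638 and 7184 in Ascl5WT/WT, with no overlap. The log2 difference was -2.74 (95% interval -4.51 to -0.97, limma adjusted p = 0.221). In Ascl5Mut/WT its values of 8885 and 6705 overlapped the 4689 and 7429 of Ascl5WT/WT, with a log2 difference of 0.38 (95% interval -0.52 to 1.28, limma adjusted p = 0.796).

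Krt6a, the type II keratin of activated keratinocytes and oral epithelium, had 416 and 6767 in Ascl5Mut/Mut, against 110 and 234 in Ascl5WT/WT. It had 1009 and 4125 in Ascl5Mut/WT, against 112 and 243 in Ascl5WT/WT. Neither difference passed (limma adjusted p = 0.564 and 0.587), although mutant values lay above in both tables. Krt16, a type I partner of Krt6a, read 0 in both Ascl5WT/WT libraries, with values of 275 and 970 in Ascl5Mut/Mut and 0 and 547 in Ascl5Mut/WT. Krt6b was above 0 in replicate 2 of each mutant genotype only, at 1545 in Ascl5Mut/Mut and 460 in Ascl5Mut/WT. Krt6a and Krt6b are close copies, as are parts of Krt14, Krt16 and Krt17, and how the counting shared reads among them is not given in the sources used here.

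Of the 5 suprabasal epidermal keratins, Krt2 and Krt9 were listed at 0 throughout. Krt1, the type II keratin of upper epidermal layers, had 1267 and 4840 in Ascl5Mut/Mut, against 541 and 118 in Ascl5WT/WT. It had 1015 and 3585 in Ascl5Mut/WT, against 553 and 123 in Ascl5WT/WT. The groups did not overlap in either table, and neither difference passed (limma adjusted p = 0.405 and 0.594). Krt10, the type I partner of Krt1, had 415 and 2379 in Ascl5Mut/Mut, against 2143 and 0 in Ascl5WT/WT, and 0 and 691 in Ascl5Mut/WT, against 2189 and 0 in Ascl5WT/WT. Its values overlapped between the groups, and a single Ascl5WT/WT library held all of the Ascl5WT/WT signal. The log2 difference in Ascl5Mut/Mut was 1.15 (SE 1.76, limma adjusted p = 0.834), and -0.97 without Ascl5WT/WT replicate 2.

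Simple epithelial keratins were close to the limit of detection. Krt18 was listed at 0 in each Ascl5Mut/Mut replicate, against 549 and 356 in Ascl5WT/WT, and had 376 and 552 in Ascl5Mut/WT, against 558 and 370 in Ascl5WT/WT. Its partner Krt8 was likewise listed at 0 in each Ascl5Mut/Mut replicate, against 111 and 472 in Ascl5WT/WT, and had 0 and 140 in Ascl5Mut/WT, against 111 and 484 in Ascl5WT/WT. Both fell short of the minimum mean of 1000. Under the 3 alternatives with a lower or no minimum, limma gave adjusted p-values of 0.308 to 0.709 for each in Ascl5Mut/Mut, with values of about 1.02 to 5.05 estimated reads behind the Ascl5WT/WT side. Krt23, a type I keratin of simple and glandular epithelia, had 2854 in Ascl5Mut/Mut replicate 2 and was listed at 0 in every other library. Krt20 was at 0 throughout.

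Hair keratins contributed little. Of 16 hard keratins of hair, nail and tongue papillae, 3 were above 0 in the Ascl5Mut/Mut table and 3 in the Ascl5Mut/WT table, and the highest value was 680 for Krt83 in Ascl5Mut/Mut replicate 2. Keratins of the hair follicle root sheath summed to 281 and 544 in Ascl5Mut/Mut, against 437 and 356 in Ascl5WT/WT, and to 126 and 1238 in Ascl5Mut/WT, against 444 and 368 in Ascl5WT/WT. Krt75, a root sheath keratin also known from enamel, had 126 and 414 in Ascl5Mut/WT and was listed at 0 in Ascl5WT/WT. Krt80, a widely used type II keratin, had 137 and 1945 in Ascl5Mut/Mut, against 109 and 0 in Ascl5WT/WT, and 496 and 697 in Ascl5Mut/WT, against 110 and 0 in Ascl5WT/WT. Krt222, a keratin-like gene, was listed at 0 in each Ascl5Mut/Mut replicate, against 541 and 604 in Ascl5WT/WT, and overlapped in the other table, at 625 and 267 in Ascl5Mut/WT, against 560 and 640 in Ascl5WT/WT. In all, 26 keratins were at 0 in every library of the Ascl5Mut/Mut table (47.3%, against 49.0% of all genes) and 25 in the Ascl5Mut/WT table (45.5%, against 49.4%).

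Counted over all 55 keratins without a filter, 9 lay higher in Ascl5Mut/Mut without overlap (16.4%), where 6.8% of all genes did so. Another 6 lay lower without overlap (10.9%), where 6.89% of all genes did so. In Ascl5Mut/WT 7 keratins lay higher (12.7%, against 7.32% of all genes) and 1, Krt5, lay lower (1.82%, against 5.99%). The 9 that were higher in Ascl5Mut/Mut were Krt1, Krt4, Krt6a, Krt13, Krt15, Krt16, Krt76, Krt78 and Krt80. Some of these rest on single reads. Krt78 and Krt80 each had about 0.98 estimated reads in Ascl5Mut/Mut replicate 1, and Krt80 had 1.00 in Ascl5WT/WT replicate 1. Krt16 had 1.97 in Ascl5Mut/Mut replicate 1, and Krt75, counted as higher in Ascl5Mut/WT, had 0.99 in Ascl5Mut/WT replicate 1. The 6 that were lower in Ascl5Mut/Mut were Krt5, Krt8, Krt17, Krt18, Krt27 and Krt222, of which 4 were listed at 0 in each Ascl5Mut/Mut replicate. With both comparisons resting on the same Ascl5WT/WT libraries, the 2 sets of counts are not independent.

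At the minimum mean of 1000, 10 keratins were tested in the Ascl5Mut/Mut table and 8 in the Ascl5Mut/WT table. limma called 2 of the 10 in Ascl5Mut/Mut, where it called 0.856% of the 2336 genes tested in either direction and 0.557% as higher. It called 2 of the 8 in Ascl5Mut/WT, where it called 0.549% of 2370 genes in either direction and 0.338% as higher. Both times the 2 were Krt4 and Krt13, and no keratin was called lower, where 0.3% and 0.211% of all tested genes were. No gene of any kind was called without either Ascl5Mut/Mut library in the first comparison or either Ascl5Mut/WT library in the second. The share of tested keratins cannot be set against these backgrounds, since 6 of the 10 and 5 of the 8 had Ascl5WT/WT means under 1000 and passed the minimum through the mutant libraries. Krt4 and Krt13 were among these in both comparisons.

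**Figure D3:**
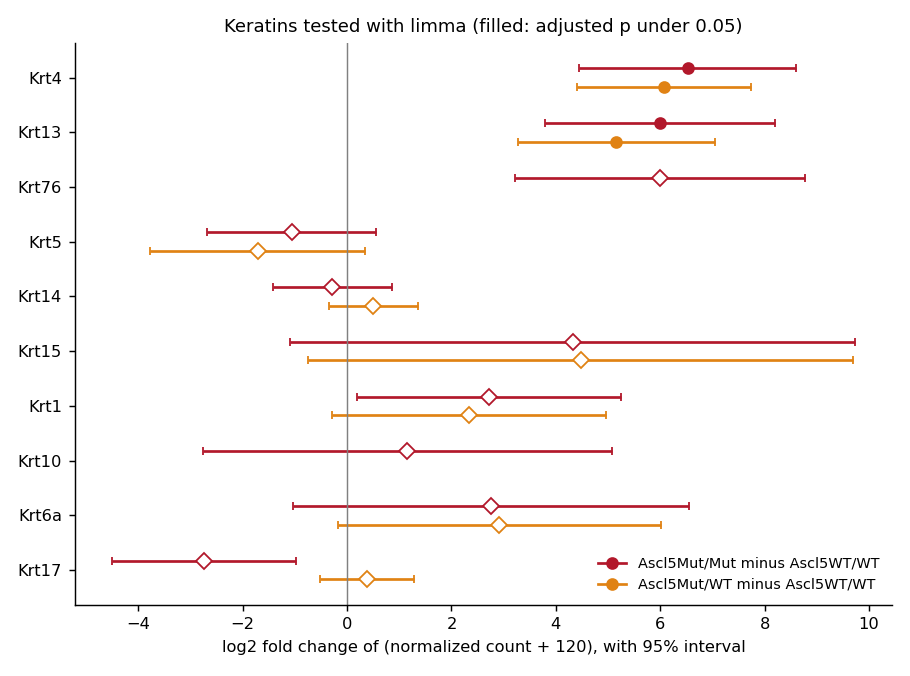
Differences of mutant minus Ascl5WT/WT libraries on the log2(normalized count + 120) scale for each tested keratin, with 95% intervals from limma; filled circles passed an adjusted p of 0.05, and Krt76 and Krt10 were tested for Ascl5Mut/Mut only. Krt4 and Krt13 lie at 5.16 to 6.52, and the intervals of Krt5 and Krt14 cross 0 in both comparisons.

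Within each mutant genotype the 2 libraries differed widely in keratins. Replicate 2 had the higher value for 19 keratins and replicate 1 for 3 in Ascl5Mut/Mut. The ratio of replicate 2 to replicate 1 was 6.46 for Krt4, 7.13 for Krt13, 7.35 for Krt76, 7.26 for Krt15 and 6.86 for Krt17. It was lower for Krt1 at 3.82, Krt14 at 3.23 and Krt5 at 1.20, and highest among the 10 tested keratins for Krt6a at 16.3. Several of the 10, such as Krt15 and Krt6a, reached the minimum mean through replicate 2, so their ratios are not set against those of other genes. In Ascl5Mut/WT replicate 2 was higher for 20 keratins and replicate 1 for 6. The ratio there was 4.90 for Krt13, 6.27 for Krt15 and 1.85 for Krt4, while Krt17 was higher in replicate 1, at a ratio of 0.755. It was 13.4 for Krt5, with about 0.99 estimated reads in replicate 1. The Ascl5WT/WT libraries were close for Krt14, at a ratio of 0.897 in the Ascl5Mut/Mut table, but differed for Krt1, at 0.218, and for Krt10, with 2143 and 0.

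**Figure D4:**
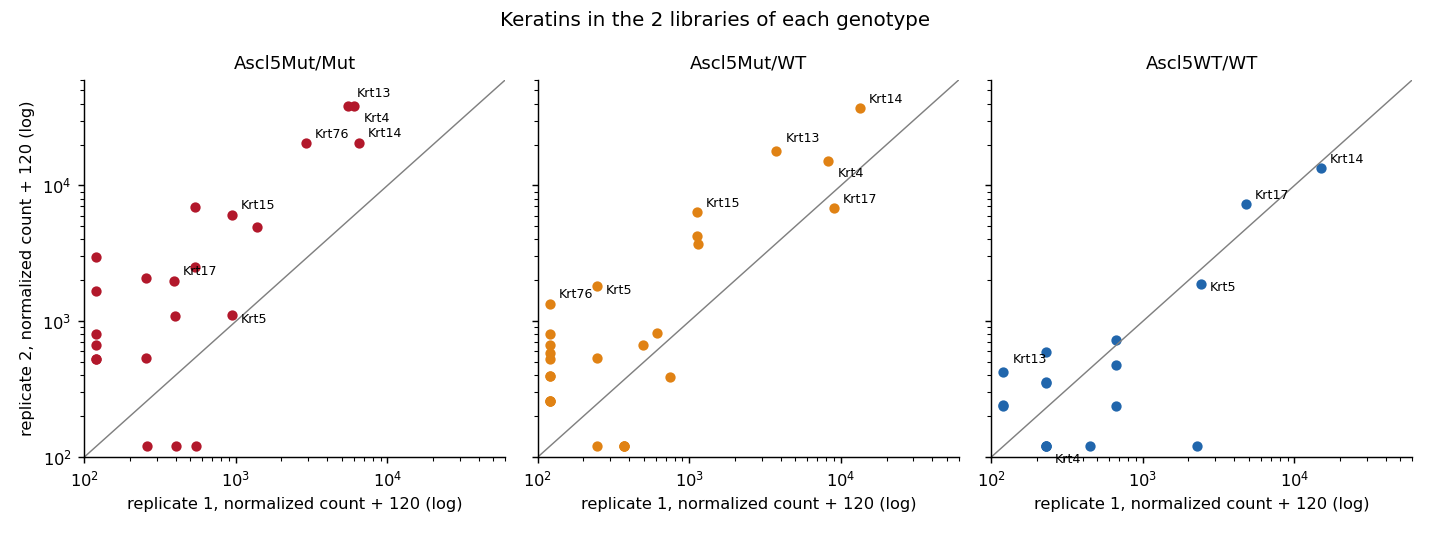
Each point is a keratin, with its normalized count plus 120 in replicate 1 (horizontal) and replicate 2 (vertical), both on log axes, for Ascl5Mut/Mut, Ascl5Mut/WT and Ascl5WT/WT (values of the Ascl5Mut/Mut table); the line marks equal values. Points of Ascl5Mut/Mut lie mostly above the line, with Krt4 at 5922 and 38281, whereas Krt14 of Ascl5WT/WT lies close to it at 14740 and 13227.

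Ratios within a library do not depend on its scaling, and they were formed on levels per kilobase of annotated exon. The ratio of Krt4 to Krt13 was near 1 in Ascl5Mut/Mut, at 0.946 and 0.858, and was 1.91 and 0.72 in Ascl5Mut/WT. Krt13 per unit of Krt14 was 0.811 and 1.79 in Ascl5Mut/Mut, against 0 and 0.0223 in Ascl5WT/WT, and 0.266 and 0.468 in Ascl5Mut/WT, against 0 and 0.0207. The ratio of Krt5 to Krt14 was 0.104 and 0.0384 in Ascl5Mut/Mut, against 0.125 and 0.106 in Ascl5WT/WT. In Ascl5Mut/WT it was 0.00765 and 0.0367, against 0.116 and 0.0983. Krt5 was thus low beside its partner in every library. The ratio lay below both Ascl5WT/WT libraries in all 4 mutant libraries, by very little in Ascl5Mut/Mut replicate 1. The lowest ratio, in Ascl5Mut/WT replicate 1, rests on about 0.99 estimated reads of Krt5. Krt17 per unit of Krt14 was 0.0484 and 0.103 in Ascl5Mut/Mut, against 0.357 and 0.616 in Ascl5WT/WT, and 0.764 and 0.207 in Ascl5Mut/WT, against 0.328 and 0.567. Krt76 per unit of Krt4 was 0.43 and 0.489 in the 2 Ascl5Mut/Mut libraries.

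By filament type, the 28 acidic type I members held 53.4% and 48.8% of the summed keratin level in Ascl5Mut/Mut, against 87.2% and 89.1% in Ascl5WT/WT. They held 71.4% and 71.7% in Ascl5Mut/WT, against 87.7% and 89.5%. The balance of type I and type II keratins was closest to equal in Ascl5Mut/Mut, where Krt4 and Krt76 made up most of the type II sum. Exons of Krt4, Krt13, Krt14, Krt15 and Krt17 overlap no other annotated gene in GENCODE M21. Those of Krt76, Krt5, Krt6a and Krt10 overlap opposite-strand genes by 111, 129, 471 and 146 bases, counting the longer overlap for Krt6a. The strand setting of the counting is not given in the sources used here, so reads of these 4 keratins may include reads of the opposite gene.

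Among genes that work with keratins, sums were highest in replicate 2 of each mutant genotype for desmosome and cornified envelope genes. Desmosome genes, which anchor keratin filaments at cell junctions, summed to 12029 and 67829 in Ascl5Mut/Mut, against 23144 and 17228 in Ascl5WT/WT, and limma called 0 of 6 tested (2 at an unadjusted p under 0.05, where 11.2% of all tested genes were). Those 2 went opposite ways, with log2 differences of 1.93 for Ppl and -2.45 for Dsc3 (limma adjusted p = 0.344 and 0.354). Dsp alone, the desmosomal linker to keratin, held 6058 and 40760 of the Ascl5Mut/Mut sum, against 14525 and 10488 in Ascl5WT/WT. Their sum in Ascl5Mut/WT was 16456 and 47576, against 23587 and 17965, with 0 of 5 called (1 at an unadjusted p under 0.05, Dsc3 at a log2 difference of -1.40, where 8.73% of all tested genes were). Cornified envelope and late differentiation genes summed to 6431 and 30677 in Ascl5Mut/Mut, against 973 and 2884 in Ascl5WT/WT, and 1 of 2 tested genes, Rptn, was called higher, where 0.557% of all tested genes were. Rptn, which encodes a cornified envelope protein, had 3948 and 17423 in Ascl5Mut/Mut and was listed at 0 in each Ascl5WT/WT replicate (limma adjusted p = 0.0403). Both tested genes of the list, Rptn and Sprr3, read 0 in Ascl5WT/WT and reached the minimum mean through the mutant libraries alone, so the count does not describe the list. Their sum in Ascl5Mut/WT was 2797 and 14105, against 980 and 2987, with 0 of 2 called higher, where 0.338% of all tested genes were. Of the hemidesmosome genes and keratin linkers 0 of 3 were called in either comparison, where 0.856% and 0.549% of all tested genes were. Their median log2 difference in Ascl5Mut/Mut was -0.07, where the median of all tested genes was -0.02. There 1 of the 3, Dst, had an unadjusted limma p under 0.05, where 11.2% of all tested genes did. Dst had 6079 and 6707 in Ascl5Mut/Mut, against 15508 and 15214 in Ascl5WT/WT (log2 difference -1.25, limma adjusted p = 0.237). In Ascl5Mut/WT it overlapped, at 14285 and 14876, against 14703 and 14754.

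Krt4 and Krt13 were higher in every mutant library, whereas Cdh1 overlapped between the genotypes. Epcam and the basal regulator Trp63 were lower in Ascl5Mut/Mut and overlapped in Ascl5Mut/WT. Cdh1, the epithelial cadherin, had 280 and 1769 in Ascl5Mut/Mut, against 653 and 1561 in Ascl5WT/WT, and 127 and 2307 in Ascl5Mut/WT, against 666 and 1628. Epcam, an epithelial adhesion molecule, was listed at 0 in each Ascl5Mut/Mut replicate, against 217 and 120 in Ascl5WT/WT, and had 506 and 0 in Ascl5Mut/WT, against 221 and 125. Its Ascl5WT/WT values lay within what a listing of 0 is compatible with. Trp63, the regulator of basal epithelial cells, had 1049 and 5829 in Ascl5Mut/Mut, against 21134 and 13756 in Ascl5WT/WT (log2 difference -2.70, limma adjusted p = 0.145). It had 6836 and 15167 in Ascl5Mut/WT, against 20373 and 13565. All 10 general epithelial markers together summed to 1666 and 7706 in Ascl5Mut/Mut, against 3164 and 5503, and to 2651 and 7619 in Ascl5Mut/WT, against 3218 and 5731, so the groups overlapped in both tables. The 12 enamel organ markers summed to 702 and 1879 in Ascl5Mut/Mut, against 5647 and 3802, and to 3544 and 3862 in Ascl5Mut/WT, against 5696 and 3914. These sums were lower without overlap in both tables, by very little for Ascl5Mut/WT replicate 2. None of the 12 reached the minimum mean in the Ascl5Mut/Mut table. There Shh and Sostdc1 read 0 in both Ascl5Mut/Mut libraries, against 2146 and 1340 for Shh and 1413 and 1684 for Sostdc1. Fst went the other way, at 562 and 685, against 323 and 0. In Ascl5Mut/WT Sostdc1 had 251 and 541, against 1450 and 1768 (limma adjusted p = 0.653), and Shh overlapped. Among markers of non-epithelial tissue, the sums of mesenchyme genes were separate in both tables, and those of fibroblast genes in the Ascl5Mut/Mut table only. The 12 dental mesenchyme and odontoblast genes summed to 5572 and 5559 in Ascl5Mut/Mut, against 51393 and 55242 in Ascl5WT/WT. They summed to 22266 and 13392 in Ascl5Mut/WT, against 52408 and 57548. Dlx1 alone held most of each Ascl5WT/WT sum, so these sums do not describe the list. It had 2348 and 556 in Ascl5Mut/Mut, against 47224 and 53336, and 4658 and 2064 in Ascl5Mut/WT, against 48116 and 55586. Dlx1 was called lower in both comparisons (limma adjusted p = 0.00405 and 1.41e-05), where 0.3% and 0.211% of all tested genes were. Dspp went the other way in Ascl5Mut/WT, at 14045 and 8122, against 336 and 0. It was called higher there (limma adjusted p = 0.000399), having reached the minimum mean through the mutant libraries alone. The 7 fibroblast and matrix genes summed to 133674 and 79933 in Ascl5Mut/Mut, against 37262 and 56795. They summed to 118907 and 53291 in Ascl5Mut/WT, against 37199 and 58755. Of these genes limma called 0 of 6 tested in Ascl5Mut/Mut and 0 of 5 in Ascl5Mut/WT, where it called 0.856% and 0.549% of all tested genes. The part of tissue make-up in the keratin values was not tested.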

How the data were processed

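The authors deposited normalized gene counts, a linear signal, as 2 tables that each hold 24972 genes and 4 libraries. Per the submitters' processing notes they used mm10 and DESeq2. Aligner and strand setting were not given in the sources used here. Checked on the deposited values, median-ratio factors over genes above 0 in all 4 libraries were equal, at 1.04 in the Ascl5Mut/Mut table and 1.03 in the other. Between 83.9% and 93.5% of low values were whole multiples of the step of 1 read to within 0.1, too few to recover reads, so no count model was run.

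Mutant and Ascl5WT/WT libraries were compared within a table by limma 3.58.1 (R 4.3.3) with an intensity trend on log2(value + 120), two-sided, keeping genes whose mean reached 1000, with Benjamini-Hochberg adjustment over all of them. The pseudocount is about 1 read, and a fold change on this scale understates that of low genes. The fit was also run on simulated data with a common spread for all genes. That setting does not cover replicates as far apart as those of Krt4 and Krt13 in Ascl5Mut/Mut. Described library by library are keratins called in either comparison, those with a mean of at least 1000 in either table, and the usual pair members of each epithelium. Krt6b, Krt23, Krt75, Krt78, Krt80 and Krt222 are also given by library, outside this rule. Levels per kilobase use GENCODE M21 exon lengths on GRCm38, where 54 of 55 symbols matched. Members, lists, pseudocount and minimum were chosen with earlier results of these data known. Alternatives varied pseudocount, minimum, scaling, trend, block and libraries. Same-numbered libraries did not deviate together (correlation across genes -0.01 and 0.02).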

Additional observations from a re-analysis of the deposited data

How the results depend on the processing

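The 2 keratin calls of each comparison depended on the settings. In the Ascl5Mut/Mut comparison 0 keratins were called with a pseudocount of 1, a minimum mean of 10, no minimum, a minimum of 3000, a pseudocount of 1 with a minimum of 10, or no intensity trend. In the Ascl5Mut/WT comparison 0 were called with a pseudocount of 1, a minimum of 3000, a pseudocount of 1 with a minimum of 10, or no trend. Without the trend limma called 0 genes of any kind in either comparison, with 242 and 190 at an unadjusted p under 0.05. Leaving out 1 library gave 0 to 3 calls for Ascl5Mut/Mut and 0 to 2 for Ascl5Mut/WT, and log2 ratios of the summed keratin level of 0.0118 to 2.55 and 0.53 to 1.84. The log2 difference of Krt14 ranged from -1.12 to 0.55 in Ascl5Mut/Mut and from -0.23 to 1.24 in Ascl5Mut/WT, and that of Krt10 from -0.97 to 3.27, each changing sign in 1 case. Krt4 and Krt13 kept a positive difference under all 14 alternatives of each comparison, from 3.77 to 10.5, with adjusted p from 8.45e-10 to 0.841. Rescaling by the median ratio divided every library of a table by the same factor, so it acted through the pseudocount and minimum, and gave 3 and 2 calls. With the replicate number as a block, 3 and 2 keratins were called, with 36 and 37 calls among all genes against 20 and 13 without it, but the libraries share only a number. Depth limits all keratins under about 3 reads, and the causes of these dependences were not tested.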
